A study of Rattus norvegicus with 6 samples.

Results

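The interferon response genes described here are Stat2, Irf1, Irf7, Irf9, Mx1, Mx2, Oas1a, Isg15 and Ifit3. They were chosen by symbol from the deposited table of rat synovial cells, taking the most abundant row of each symbol, and make up 9 of its 16499 symbols. The cells were rheumatoid arthritis synovial fibroblast-like cells (RASFLs), grown out of the joint lining of female Wistar rats with collagen-induced arthritis before any therapy. Cells of 2 rats, as the 2 codes in the labels are read here, were each split over 3 serological settings, which gave 6 RNA libraries and 2 per setting. The medium held fetal bovine serum (FBS), blood serum of untreated animals (MS−), or blood serum of animals at day 18 of mechanical stimulation by needle (MS+), which the labels call acupuncture. All groups therefore share the disease, the strain and the 2 cell donors, and by their labels differ in the serum. The MS− labels call the serum donors healthy in 1 field and arthritic in others. The study's text has them as arthritic animals left without treatment, and elsewhere has the serum taken ahead of any therapy. The number of serum donors is not given, so replicates stand for the 2 rats whose cells were grown and not for serum donors. FBS differs from the rat sera in species and age of donor, and from MS+ in treatment too. By the study's text the rat donors also had induced arthritis. These differences cannot be told apart.

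Interferons are secreted proteins that warn cells of viruses and inflammation. Type I interferons bind the receptor of Ifnar1 and Ifnar2, whose kinases activate STAT proteins, STAT2 among them. STAT2 joins IRF9 in a complex that binds a DNA element called the ISRE and switches on antiviral genes such as Mx1, Oas1a, Ifit3 and Isg15. Interferon gamma acts through a pair of STAT proteins at another element, the GAS, with Irf1 as a well known target. Irf7 drives further interferon production once a first signal has been received. In the arthritic joint, synovial fibroblasts are known as cells that respond to both kinds of interferon.

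The promoters of the members are shown first, because these elements define the group in textbooks. RefSeq promoters of the GRCr8 assembly were found for 7 members, and there were no entries for Mx2 and Isg15. The 250 bases upstream of each start were searched on both strands for the ISRE letters GAAANNGAAA (TTTCNNTTTC on the other strand) and for the GAS letters TTCNNNGAA. An ISRE match was present in 3 of the 7 promoters, against 38.1% of 84 promoters of other interferon pathway genes and 3.41% of 33469 rat promoters. A GAS match was present in 3 of the 7, against 16.7% of the other pathway genes and 7.67% of rat promoters. The sequences below run 5′ to 3′ on the strand of the gene, with the match in capitals; the Oas1a stretch holds 2 overlapping ISRE matches, and no ISRE match shown overlaps a GAS match.
Irf7, ISRE, chr1:205800058-205800117 (minus strand): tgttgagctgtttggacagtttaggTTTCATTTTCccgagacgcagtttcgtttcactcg
Oas1a, ISRE, chr12:41330400-41330465 (plus strand): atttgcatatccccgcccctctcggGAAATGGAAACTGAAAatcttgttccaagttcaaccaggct
Ifit3, ISRE, chr1:241527257-241527316 (plus strand): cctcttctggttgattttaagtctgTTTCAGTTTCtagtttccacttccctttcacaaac
Irf1, GAS, chr10:38417768-38417826 (plus strand): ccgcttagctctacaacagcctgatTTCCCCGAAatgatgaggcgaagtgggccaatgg
Irf9, GAS, chr15:33065712-33065770 (plus strand): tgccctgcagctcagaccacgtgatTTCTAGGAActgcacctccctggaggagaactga
The ISRE match of Irf7 began 69 bases before the start, that of Oas1a 41 bases and that of Ifit3 44 bases. The GAS match began 142 bases upstream in Irf1 and 99 bases upstream in Irf9. Oas1a held a GAS match too, and neither motif was found in this window of Stat2 or Mx1. A match describes the letters and is not a bound site.

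The libraries held 5463316 to 5991889 reads, and 9820 transcript features reached 1 CPM (read counts scaled to library size by the TMM method) in both libraries of at least 1 setting and were tested. The floor of detection was set at 3 reads per library, equal to 0.491 to 0.551 CPM, and covers counting error only. Of 12 fibroblast markers, 10 were tested, while Dcn and Lum had 0 to 5 reads in each library and Prg4, a product of lining fibroblasts, had 7 to 20. Of 11 macrophage markers, 6 had no read in any library (Ptprc, Itgam, Emr1, Cd163, Lyz2 and Fcgr1a). Cd14 had 73 to 106 reads per library, Cd74 had 12 to 29, and Cd68, Csf1r and Mrc1 had 0 to 11. The summed level of the list was 17.9 to 19.8 CPM in FBS, 19.3 to 26.2 in MS− and 18.7 to 22.3 in MS+. Of 9 lymphocyte markers with a row 6 had no read, and Cd3g, Cd4 and Cd8a had 0 to 4 per library. Of 4 endothelial markers with a row 2 had none, while Tek had 1 to 9 reads per library and Pecam1 0 or 1. All 5 blood cell markers with a row had none. In bulk RNA, fewer cells that express a gene and less RNA per cell cannot be told apart.

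The antiviral effectors among the members were absent or nearly so in every setting. Mx2, a dynamin-like GTPase (NM_134350, rn4 chr11:37548650-37572716, plus strand), had 0 reads in all 6 libraries. Oas1a, a sensor enzyme that makes the oligoadenylates activating RNase L (NM_138913, chr12:36806061-36816722, plus strand), also had 0 reads in all 6. Mx1, the sister GTPase (NM_173096, chr11:37438473-37462363, minus strand), had 1 read, in the MS+ library of rat 2. Ifit3, an RNA-binding partner of the other Ifit proteins (NM_001007694, chr1:238571300-238576441, plus strand), had 5 reads, of which 2 were in FBS, 1 in MS− and 2 in MS+. All 5 came from the cells of rat 1. Together these 4 genes took 6 of 34122561 reads. Each was at or under the floor in every library, so no fold change can be given, and expression below it was not detectable at this depth. The counting of reads shared by near-identical copies can lower the rows of the Mx, Oas1 and Ifit families, so these counts are uncertain.

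Isg15, a ubiquitin-like protein that is attached to other proteins after interferon, was detected at the edge of the range (NM_001106700, chr5:173034479-173035766, minus strand). Its reads were 7 and 6 in FBS, 6 and 9 in MS−, and 3 and 5 in MS+, for rat 1 and rat 2 in turn. In CPM these were 1.15 and 0.995 in FBS, 1.10 and 1.63 in MS−, and 0.541 and 0.918 in MS+. The lowest values were those of MS+, and the MS+ libraries did not overlap with those of the other settings. Isg15 passed the filter only through MS−, the setting where it was highest, so this separation was favoured by the filter. With limma, the difference of MS+ from MS− was −0.45 on the log2(CPM + 1) scale (95% interval −1.09 to 0.19, adjusted p = 0.391).

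The transcription factors were the members with a clear signal. Stat2 (NM_001011905, chr7:1564385-1580652, plus strand) was at 46.2 and 44.8 CPM in FBS, at 41.5 and 34.2 in MS−, and at 36.6 and 35.8 in MS+. Both FBS libraries were above all 4 rat serum libraries, while MS+ lay within the range of MS−. Irf9, its DNA-binding partner (NM_001012041, chr15:33739755-33744958, plus strand), was at 13.6 and 16.6 CPM in FBS, 17.2 and 17.5 in MS−, and 15.9 and 14.3 in MS+. The MS+ values of Irf9 lay inside the range of FBS, and MS− was above both.

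Irf1, the factor that interferon gamma induces (NM_012591, chr10:39220600-39227602, plus strand), was at 10.5 and 7.30 CPM in FBS, 6.40 and 4.70 in MS−, and 5.04 and 4.40 in MS+. FBS was above both rat sera with no overlap, and the cells of rat 1 were higher than those of rat 2 in each setting. Irf7, the amplifier of interferon production (NM_001033691, chr1:201456689-201459756, minus strand), was at 5.24 and 5.14 CPM in FBS, 7.32 and 9.94 in MS−, and 7.75 and 6.97 in MS+. Here FBS was below both rat sera with no overlap, and MS− and MS+ overlapped. None of the 9 rows overlaps a row of another symbol.

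**Figure D1:**
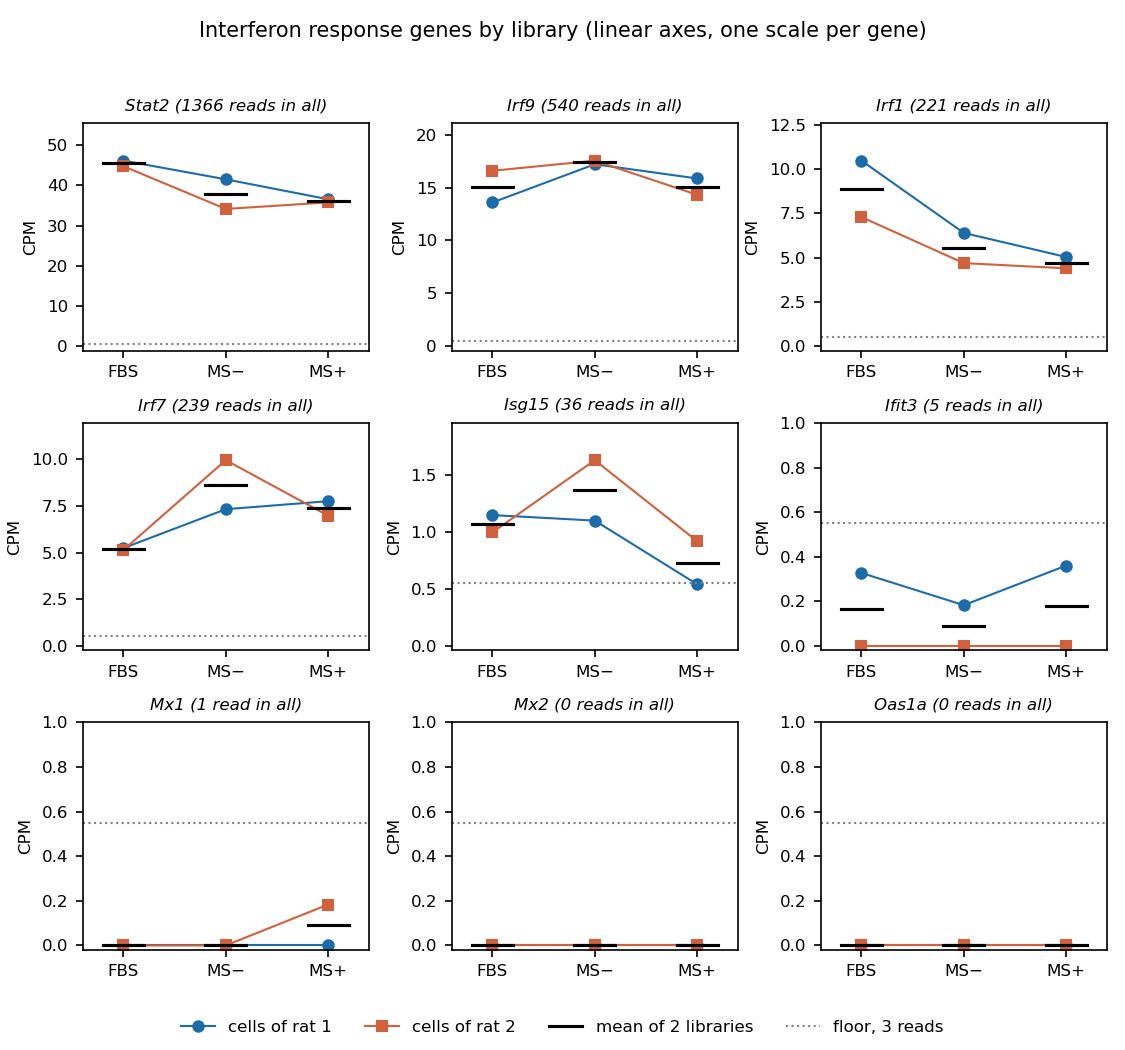
CPM of each member (vertical axis, linear, its own scale per gene) in FBS, MS− and MS+ (horizontal axis). Circles and squares are the cells of rat 1 and rat 2, joined within a rat, bars are means of 2 libraries and the dotted line is the highest floor of 3 reads (0.551 CPM). Stat2 and Irf1 are highest and Irf7 lowest in FBS, while Mx1, Mx2, Oas1a and Ifit3 stay under the floor.

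The comparison of MS+ with MS− sets serum of stimulated animals against serum of untreated ones. The study's methods have the MS− serum drawn ahead of any therapy and the MS+ serum during treatment. Read that way, stimulation cannot be told apart from the day of sampling or the stage of the arthritis. The labels also conflict on the health of the MS− donors, so this comparison does not isolate stimulation. None of the 5 tested members passed the test, against 10.1% of all features in that comparison (5.27% higher and 4.78% lower; limma with the rat as a block, Benjamini-Hochberg adjusted p under 0.05). None reached an unadjusted p under 0.05 either, as 24.6% of features did, and edgeR, limma-voom and DESeq2 called none (DESeq2 gave no adjusted p for Isg15). The estimates of the factors were −0.057 for Stat2 (95% interval −0.31 to 0.20), −0.18 for Irf1 (−0.64 to 0.27), −0.19 for Irf7 (−0.65 to 0.27) and −0.19 for Irf9 (−0.55 to 0.16). The adjusted p values of the 5 members were 0.391 to 0.828. All 5 intervals include 0 and leave room for a change in either direction, and that of Stat2 is the narrowest. The estimate of Isg15, given above, is the 1 whose direction the filter favoured. The estimate was below 0 in both rats for Irf1, Irf9 and Isg15, and of opposite sign in the 2 rats for Stat2 (−0.18 and 0.065) and Irf7 (0.073 and −0.46). A difference of Stat2 or Irf7 between MS+ and MS− of either sign thus rested on 1 rat, as leaving out MS− replicate 1 gave 0.062 for Stat2 and leaving out MS− replicate 2 gave 0.045 for Irf7.

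Against FBS, Irf1 was lower in MS+. Its mean was 8.89 ± 2.25 CPM in FBS and 4.72 ± 0.45 in MS+ (SD, n = 2 each), a log2 difference of −0.77 (SE 0.21, limma adjusted p = 0.0139), or 1.71-fold higher in FBS on the log2(CPM + 1) scale. The within-rat differences were −0.92 and −0.62. It was the only 1 of the 5 tested members to pass, beside 28.2% of all features (14.4% higher and 13.9% lower), and 2 had an unadjusted p under 0.05, beside 39.2%. The call was lost without the rat as a block (adjusted p = 0.101), with DESeq2 (0.232), with no filter (0.0526), without FBS replicate 1 (0.114) and without MS+ replicate 1 (0.110). It held in 9 of 14 alternative analyses, whose adjusted p ran from 0.0101 to 0.232.

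For Stat2 the difference of MS+ from FBS was −0.32 (95% interval −0.58 to −0.066, limma adjusted p = 0.0579), with within-rat differences of −0.33 and −0.32. It fell just outside the threshold, and edgeR (0.0456) and limma-voom (0.0463) put it just inside. Without the rat as a block its adjusted p was 0.162, and with DESeq2 it was 0.368. The Stat2 difference passed in 4 of 14 alternative analyses. Irf7 differed by 0.43 (−0.028 to 0.89, adjusted p = 0.152). Irf9 differed by less than 0.01 (−0.35 to 0.36, adjusted p = 0.986), with within-rat differences of 0.21 and −0.20. The difference of Isg15 was −0.27 (−0.91 to 0.38, adjusted p = 0.547).

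In MS− against FBS no member passed in the limma fit, beside 20.5% of all features (10.8% higher and 9.63% lower), and 3 had an unadjusted p under 0.05, beside 32.3%. Irf7 came nearest, with 5.19 ± 0.07 CPM in FBS and 8.63 ± 1.86 in MS− and a difference of 0.62 (95% interval 0.16 to 1.08, adjusted p = 0.0534). Its FBS libraries held 32 and 31 reads, and an SD of 2 libraries does not show the counting error. The adjusted p of Irf7 was 0.153 without the block and 0.460 with DESeq2, and 2 of 14 alternative analyses called it. The difference of Irf1 was −0.59 (−1.04 to −0.13, adjusted p = 0.0661), and edgeR called it (0.0497) while limma-voom and DESeq2 did not. That of Stat2 was −0.26 (−0.52 to −0.0088, adjusted p = 0.140), that of Irf9 0.20 (−0.16 to 0.55, 0.454) and that of Isg15 0.18 (−0.46 to 0.83, 0.732). The MS+ and MS− comparisons with FBS share their FBS libraries and are not independent of each other. No member met the rule of the study (at least 2-fold, at an unadjusted p under 0.05 and a mean level of 1 CPM or above) in any comparison. Of all features 1.38% met it in MS+ against MS−, 5.6% in MS+ against FBS and 3.88% in MS− against FBS.

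**Figure D2:**
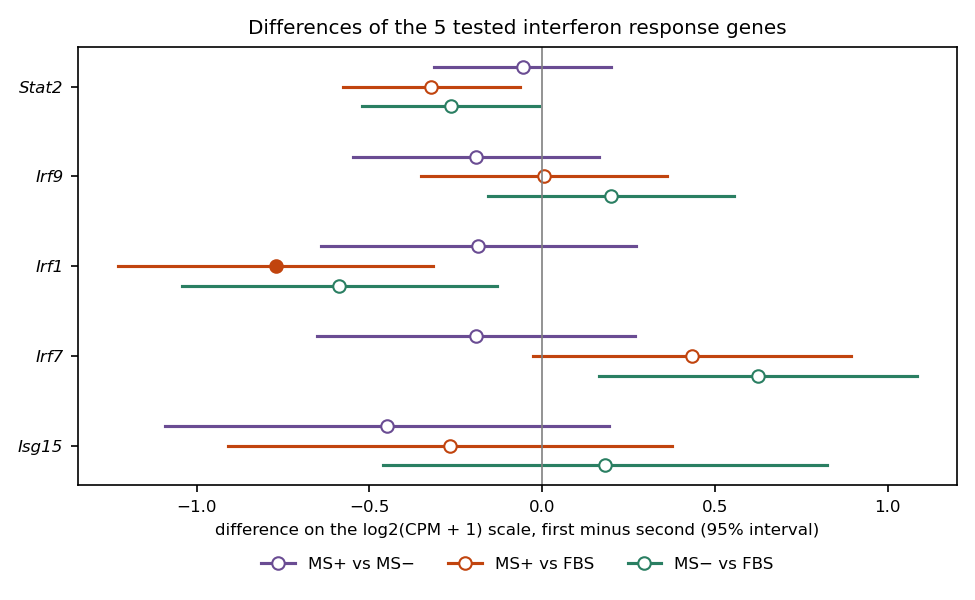
Difference on the log2(CPM + 1) scale with its 95% interval (horizontal axis) for the 5 tested members (vertical axis) in the 3 comparisons, first setting minus second. The filled symbol marks an adjusted p under 0.05, which Irf1 reached in MS+ against FBS, and all intervals of MS+ against MS− include 0.

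Both FBS libraries lay outside the 4 rat serum libraries in 3 of the 5 tested members, above for Stat2 and Irf1 and below for Irf7. The same held for 34.1% of all features (16.5% above, 17.5% below) and for 35.2% of the other tested pathway genes.

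The features whose profile over the 6 libraries was most like that of a member were, for Stat2, Ptma, Dnajc30 and Slc44a2, with Pearson r of 0.993 for Ptma on log2(CPM + 1). For Irf1 they were Clta, Lmo4 and Mtss1l (r = 0.996 for Clta). Selt, Cgrrf1 and Rev1 were nearest to Irf7 (r = 0.990 for Selt), and Triap1, Shc1 and Pms2 to Irf9 (r = 0.995 for Triap1). Bccip, Zscan21 and LOC100233176 were nearest to Isg15 (r = 0.988 for Bccip). The members themselves were left out of this ranking, and no other pathway gene was among these neighbours. With 9815 features ranked over the same 6 libraries, 10 to 83 features had an r above 0.95 with a given member, so these neighbours are a description only.

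The rest of the interferon pathway was listed by role. Of 128 further genes, 102 had a row, 14 of these had 0 reads in every library and 71 were tested. Among ligands, the 5 with a row (Ifna1, Ifna4, Ifnb1, Ifng and Ifnk) had no reads in any library. The receptor side was expressed, with Ifnlr1 the lowest at 1.98 to 4.04 CPM. Jak2 was at 44.4 to 69.1 CPM, with an unadjusted limma p of 0.0469 in MS+ against FBS (adjusted p = 0.122). Jak1, a kinase of both receptors, was at 343 to 389 CPM in the 6 libraries, and Ifngr1, the interferon gamma receptor, at 70.4 to 79.1 CPM. Of the 7 tested receptors and kinases, which also include Ifngr2, Ifnar1 was the only 1 to pass, in MS+ against FBS. Its level was 78.2 and 79.7 CPM in FBS and 107 and 86.8 in MS+, a difference of 0.28 (limma adjusted p = 0.0489). That call was lost without the block (0.217) and when any of 4 libraries was left out (FBS replicate 1 gave 0.498, MS− replicate 1 0.109, MS− replicate 2 0.107 and MS+ replicate 1 0.317). Ifnar2 and Tyk2 were not analysed here.

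Of the 5 other tested STAT and IRF factors, Irf3, a factor that starts interferon production, was higher in MS+ (0.64, adjusted p = 0.00191) and in MS− (0.55, 0.0072) than in FBS. Its row overlaps that of Bcl2l12, the call in MS− was lost without MS− replicate 1 (0.390), and both were lost without the block (0.0546 and 0.112). Stat3, the most abundant row of the list, did not pass in any comparison (0.14 in MS+ and 0.036 in MS− against FBS).

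Within the antiviral effectors, 20 were tested and 7 passed in MS+ against FBS (35.0%), 4 higher and 3 lower, beside 28.2% of all features (14.4% higher and 13.9% lower). Isg20, an RNA-degrading exonuclease, was at 7.37 and 5.47 CPM in FBS, 14.3 and 12.3 in MS−, and 16.2 and 14.7 in MS+. It was higher by 1.16 in MS+ (limma adjusted p = 0.000207) and by 0.95 in MS− (0.0015), the latter with 0.0559 without MS− replicate 2. Ifitm3 and Ifitm2, membrane proteins that block viral entry, were also higher. Ifitm3 was at 95.3 and 115 CPM in FBS, 157 and 159 in MS−, and 160 and 155 in MS+, a rise of 0.58 in MS+ (adjusted p = 0.000277) and 0.59 in MS− (0.000341). Ifitm2 was at 95.1 and 110 CPM in FBS, 125 and 149 in MS−, and 164 and 209 in MS+, and the 3 settings did not overlap. Its rise was 0.85 in MS+ (adjusted p = 3.71e-06) and 0.41 in MS− (0.00329), the latter lost without MS− replicate 1 (0.117) or MS− replicate 2 (0.0962) and without the block (0.187). The Ifitm genes are alike in sequence, so their rows are uncertain.

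Ifit2, a relative of the nearly silent Ifit3, went the other way. It was at 47.5 and 38.1 CPM in FBS, 33.5 and 28.0 in MS−, and 27.9 and 28.4 in MS+ (NM_001024753, chr1:238559729-238565793, plus strand). The fall was −0.58 in MS+ (limma adjusted p = 0.00367) and −0.46 in MS− (0.0198). The MS− call was lost without FBS replicate 1 (0.201), MS− replicate 1 (0.153) or MS− replicate 2 (0.269), and both were lost without the block (0.0638 and 0.151). Of the 31 antiviral rows beyond the members, 5 had no reads (Oas1k, Oas1i, Oas2, Oasl and Rsad2) and 9, these included, never had more than 3 reads in a library.

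Antigen presentation held 15 tested genes, of which 5 rose and 1 fell in MS+ against FBS (40.0%), beside 28.2% of all features (14.4% higher and 13.9% lower). Tap1, which carries peptides to class I molecules, was at 23.6 and 20.4 CPM in FBS, 40.2 and 32.9 in MS−, and 48.8 and 40.7 in MS+. It was higher by 0.99 in MS+ (limma adjusted p = 2.36e-05) and by 0.71 in MS− (0.000722). B2m, the light chain of class I, rose by 0.52 (0.000575) and 0.51 (0.000983), and RT1-A2, a rat class I heavy chain whose row overlaps RT1-A3, by 0.91 (0.000202) and 0.61 (0.00582). Tap2, the partner of Tap1, fell by 0.55 in MS+ (0.0428), a call lost without the block (0.150) and without FBS replicate 1 (0.110), FBS replicate 2 (0.0928), MS− replicate 1 (0.0659), MS− replicate 2 (0.0607) or MS+ replicate 1 (0.382). Without MS− replicate 2 the MS− calls were lost for B2m (0.115) and RT1-A2 (0.136), that of RT1-A2 also without MS− replicate 1 (0.102). Without the block the MS− calls of B2m (0.0759), RT1-A2 (0.0578) and Tap1 (0.0588) were lost, while those in MS+ passed.

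Among the negative regulators, Socs3, an inhibitor of JAK signalling, had the largest fall of the tested pathway genes in both comparisons with FBS on the log2(CPM + 1) scale. It was at 5.40 and 7.46 CPM in FBS, 1.65 and 1.27 in MS−, and 1.44 and 1.65 in MS+. The difference was −1.53 in MS+ (limma adjusted p = 0.000531) and −1.59 in MS− (0.000532), and both passed without the block and with each library left out. Among the GTPases induced by interferon gamma, Gbp2 was at 1.96 and 4.31 CPM in FBS, 0.549 and 0.904 in MS−, and 0.180 and 1.10 in MS+, which is 1 to 26 reads. Gbp2 passed the filter only through FBS, the setting where it was highest, so a fall was favoured by the filter. It fell by 1.33 in MS+ (0.00363) and by 1.21 in MS− (0.0094), the latter lost without FBS replicate 2 (0.0585) or MS− replicate 2 (0.188), and both were lost without the block (0.092 and 0.160). Igtp, of the same list, fell by 0.77 in MS+ (0.0146, and 0.0539 without the block), a call lost without FBS replicate 1 (0.109) or MS+ replicate 1 (0.108). The interferon-induced chemokine Cxcl11 and the enzyme Ido1 had no reads, and Cxcl9 and Cxcl10 had 1 and 5 in all.

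Further genes were called against FBS in several of the lists. Myd88, the adaptor of Toll-like receptors, was higher in MS+ (0.47, limma adjusted p = 0.0100) and in MS− (0.38, 0.0435) than in FBS. The MS+ call was lost without FBS replicate 1 (0.168) or MS+ replicate 1 (0.0836), and that in MS− without FBS replicate 1 (0.468), MS− replicate 1 (0.368) or MS− replicate 2 (0.232). RT1-A1, a class I heavy chain whose row overlaps RT1-A3, was higher in MS+ (0.58, 0.0332). It was lost without FBS replicate 1 (0.158), MS− replicate 1 (0.0602), MS− replicate 2 (0.0571) or MS+ replicate 2 (0.175). Sp100, a nuclear body protein, was higher in MS− (0.47, 0.0473), and was lost without FBS replicate 2 (0.294), MS− replicate 1 (0.30) or MS− replicate 2 (0.307). Pias3, an inhibitor of STAT3 and the most abundant negative regulator, was higher in MS− (0.42, 0.0117), and was lost without FBS replicate 1 (0.0844), MS− replicate 1 (0.215) or MS− replicate 2 (0.149). Tlr3, an endosomal RNA sensor, was higher in MS− (0.81, 0.00739), and was lost without FBS replicate 1 (0.0640), MS− replicate 1 (0.0980) or MS− replicate 2 (0.152).

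Among the falls against FBS, Wars, the tryptophan tRNA ligase, was at 217 and 175 CPM in FBS, 149 and 130 in MS−, and 166 and 151 in MS+. Its difference was −0.49 in MS− (limma adjusted p = 0.000788), lost without MS− replicate 1 (0.0599), and −0.30 in MS+ (0.0163), lost without FBS replicate 1 (0.169), MS− replicate 1 (0.0562), MS− replicate 2 (0.0548) or MS+ replicate 1 (0.106). Parp9, an ADP-ribosyltransferase family member, fell by 0.60 in MS+ (0.0222). That call was lost without FBS replicate 1 (0.127), FBS replicate 2 (0.0575), MS− replicate 2 (0.0506) or MS+ replicate 1 (0.0796). Lgals3bp, a secreted glycoprotein, fell by 0.27 in MS+ (0.0374). It was lost without FBS replicate 1 (0.106), FBS replicate 2 (0.0990), MS− replicate 1 (0.0892), MS− replicate 2 (0.0859) or MS+ replicate 1 (0.238). Cish, a relative of Socs3, fell by 0.87 in MS+ (0.0494), lost without FBS replicate 2 (0.473), MS− replicate 1 (0.0754), MS− replicate 2 (0.0732) or MS+ replicate 2 (0.481). Cish passed the filter only through FBS and MS−, so a fall in MS+ was favoured by the filter. Without the block the calls of these 9 genes were lost, with adjusted p of 0.0659 to 0.584.

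The most abundant genes of 3 further lists did not pass in any comparison. Mavs, the mitochondrial adaptor of RIG-I, was at 48.8 to 62.7 CPM in the 6 libraries, with differences of −0.26 in MS+ against MS− (limma adjusted p = 0.147), −0.055 in MS+ against FBS (0.744) and 0.21 in MS− against FBS (0.208). Ube2l6, the enzyme that conjugates Isg15, was at 3.27 to 7.71 CPM, with differences of 0.17 (0.689), 0.54 (0.0768) and 0.37 (0.261) in that order. Irgm, an immunity-related GTPase, was at 8.12 to 13.1 CPM, with differences of 0.097 (0.834), 0.072 (0.833) and −0.025 (0.953).

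**Figure D3:**
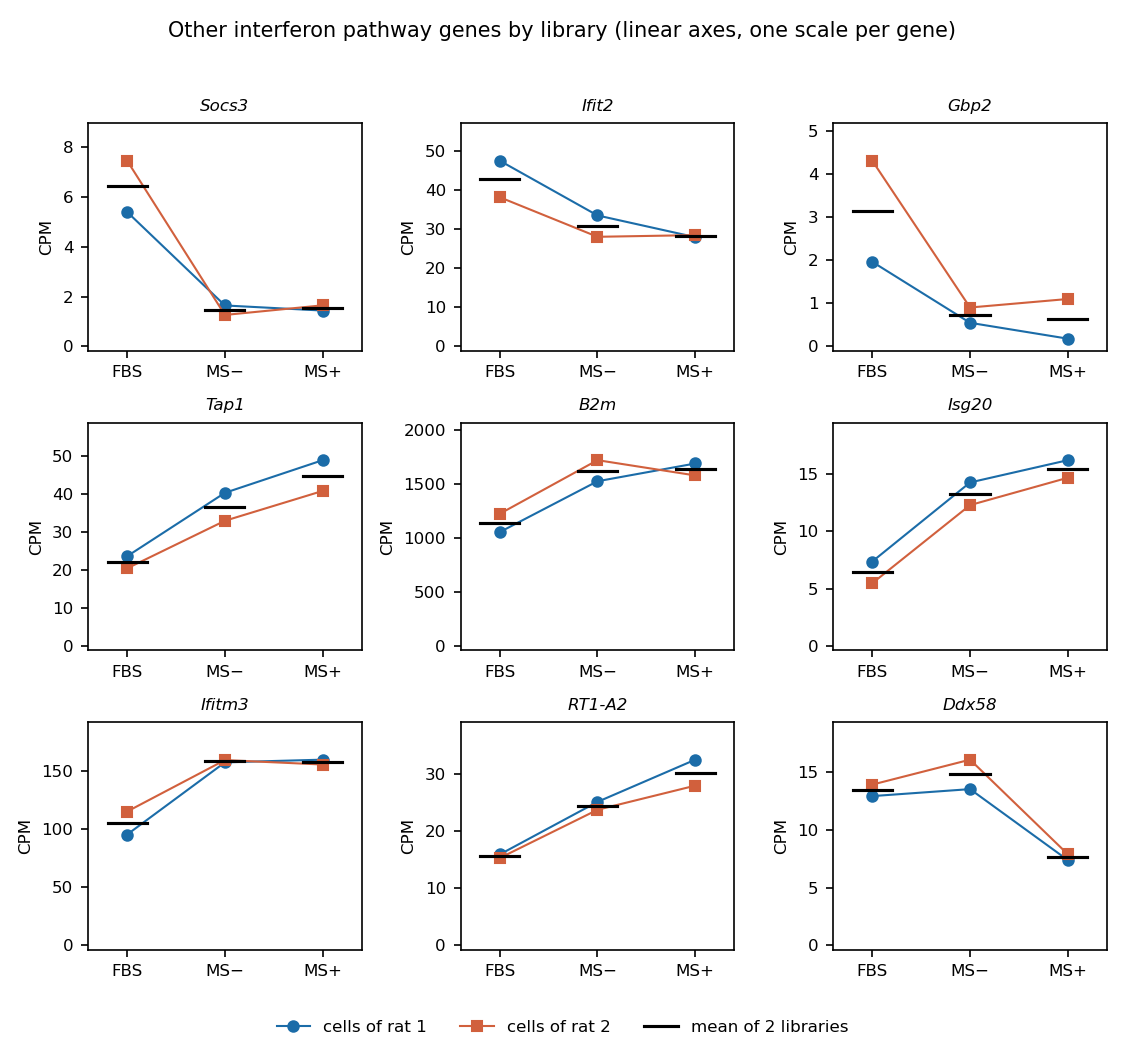
CPM (vertical axis, linear, its own scale per gene) of 9 other interferon pathway genes in FBS, MS− and MS+ (horizontal axis). Circles and squares are the cells of rat 1 and rat 2, joined within a rat, and bars are means of 2 libraries. Socs3, Ifit2 and Gbp2 are highest in FBS, Tap1, B2m, Isg20, Ifitm3 and RT1-A2 lowest there, and Ddx58 is lowest in MS+.

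In all, 23 of the 71 other pathway genes passed in MS+ against FBS (32.4%, 13 higher and 10 lower), beside 28.2% of all features. In MS− against FBS 16 passed (22.5%, 12 higher and 4 lower), beside 20.5%. Both shares are near those of all features, and the median difference over the 71 genes was −0.0022 in MS+ and 0.041 in MS−, beside 0.00078 and 0.014. Genes of the pathway thus moved both ways. Without the block 8 passed in MS+ against FBS, beside 9.61% of all features (Ddx58, Ifitm2, Ifitm3, Isg20, B2m, RT1-A2, Tap1 and Socs3) and 3 in MS− against FBS, beside 4.81% (Ifitm3, Isg20 and Socs3). DESeq2 called 8 in MS+ (Irf3, Ifitm2, Ifitm3, Isg20, B2m, RT1-A2, Tap1 and Socs3) and 6 in MS− (Ifitm3, Isg20, B2m, Tap1, Wars and Socs3). With each library left out in turn, 12 of the 23 calls and 3 of the 16 passed every time. The count in MS+ was 14 without FBS replicate 1 and 15 without MS− replicate 2, and that in MS− was 6 without MS− replicate 1 and 5 without MS− replicate 2.

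Between MS+ and MS−, 4 of the 71 passed (5.63%), beside 10.1% of all features. Ddx58, the cytosolic RNA sensor RIG-I, was at 12.9 and 13.9 CPM in FBS, 13.5 and 16.1 in MS−, and 7.39 and 7.89 in MS+. MS+ stood below the other settings without overlap, by −0.87 against MS− (limma adjusted p = 0.0056) and −0.74 against FBS (0.0056). Irf5, a factor of innate sensing, was at 22 and 17.7 CPM in MS− and 13.2 and 12.7 in MS+, a difference of −0.58 (0.0341). Psmb10, an immunoproteasome subunit, was at 14.6 and 13.9 CPM in MS− and 25.9 and 22.8 in MS+, a difference of 0.73 (0.00693), and Ifitm2 differed by 0.44 (0.00454). None of the 4 passed without the block, where 0.0204% of all features did (adjusted p = 0.126, 0.200, 0.144 and 0.262 in the order given), and of them DESeq2 called Ifitm2 alone (0.0393). Each was also lost without MS− replicate 1 (0.117, 0.461, 0.214 and 0.163) and without MS− replicate 2 (0.178, 0.187, 0.103 and 0.167), and Irf5 without MS+ replicate 1 too (0.0956). In this comparison 14 of the 71 had an unadjusted p under 0.05, beside 24.6% of all features.

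**Figure D4:**
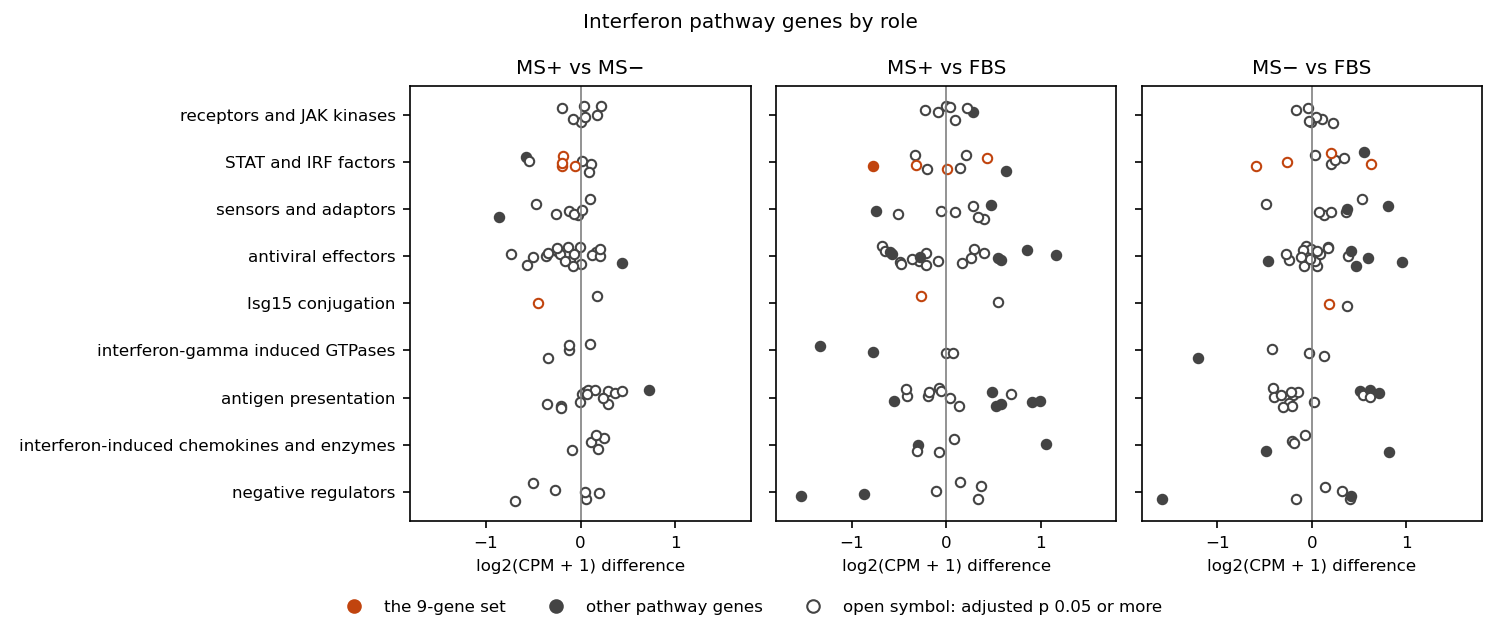
Difference on the log2(CPM + 1) scale (horizontal axis) of each tested interferon pathway gene, grouped by role (vertical axis, jittered), in the 3 comparisons. Filled symbols have an adjusted p under 0.05 and orange marks the members. Symbols lie on both sides of 0 in nearly every role, and MS+ against MS− has 4 filled symbols of 76.

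Calls were also counted by the ISRE letters, as a description with no test. Of 35 pathway genes with an ISRE match, members included, 25 were tested and 5 had no reads at all. Of these 25, 8 were called higher and 4 lower in MS+ against FBS, 7 higher and 1 lower in MS− against FBS, and 2 higher and 0 lower in MS+ against MS−. Of 56 without a match 41 were tested, of which 4 were called higher and 5 lower, 5 higher and 2 lower, and 0 higher and 1 lower, in the same order of comparisons. Over all features the shares were 14.4% higher and 13.9% lower, 10.8% and 9.63%, and 5.27% and 4.78%. Oas1a and Ifit3 had a match and stayed at or under the floor, while Irf7 had one and was not called in any comparison.

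Some genes of the pathway differed between the cells of the 2 rats in every setting. They were chosen after their values were seen, which is a description of 2 rats. Of the 76 tested pathway genes, 4 (5.26%) differed 2-fold or more between the rats, the same way in all 3 settings, as did 90 of all 9820 features (0.916%). Casp1, the protease that matures interleukin-1 beta, was at 6.88, 13.5 and 14.2 CPM in the cells of rat 1 in FBS, MS− and MS+, and at 0.995, 2.35 and 3.49 in those of rat 2. Tlr3 was higher in rat 2, at 14.1, 24.0 and 15.4 CPM against 3.60, 7.5 and 5.77. Oasl2 and Gbp5 were higher in rat 1 in each setting. In rat 2, Oasl2 had 7, 3 and 4 reads in FBS, MS− and MS+, at or near the floor of 3 reads. Gbp5 had 13, 15 and 11 reads in rat 2 in the same order. Casp1 passed the filter only through MS− and MS+, the settings where it was higher, so a rise against FBS was favoured by the filter. Its FBS value in rat 2 rested on 6 reads. Casp1 rose in both rats in MS+ against FBS (1.06, limma adjusted p = 0.00235), and without the block its adjusted p was 0.509. Its rise in MS− was 0.82 (0.0175), lost without the block (0.674) and without FBS replicate 1 (0.0668), MS− replicate 1 (0.265) or MS− replicate 2 (0.0928). No member was among the 4.

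**Figure D5:**
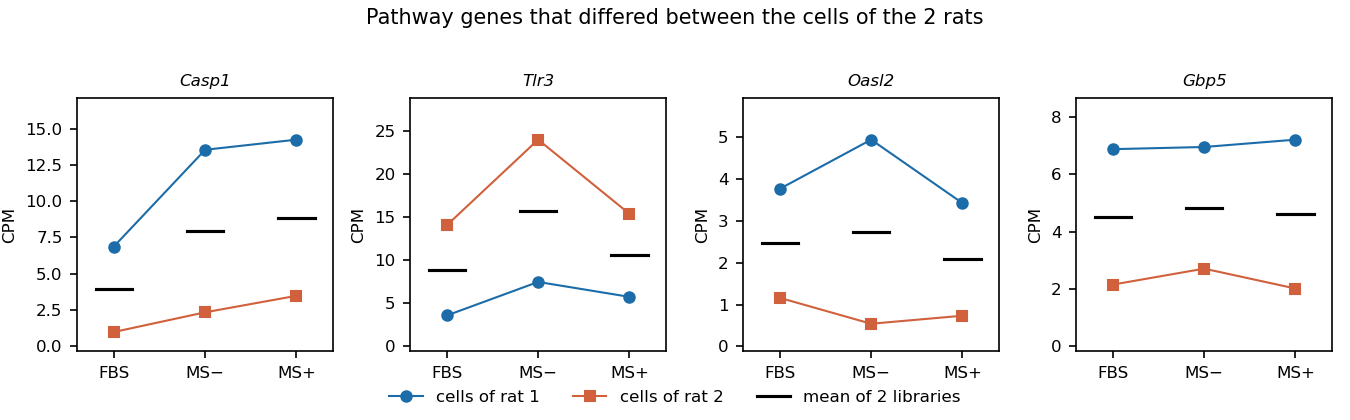
CPM (vertical axis, linear, its own scale per gene) in FBS, MS− and MS+ (horizontal axis) of the 4 interferon pathway genes that differed 2-fold or more between the rats in every setting. Circles and squares are the cells of rat 1 and rat 2, joined within a rat, and bars are means of 2 libraries. The lines of the 2 rats do not cross, which follows from how these genes were chosen.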

How the data were processed

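Poly(A) RNA of the 6 libraries was sequenced on an Illumina instrument. The authors aligned reads to rat genome rn4 with Bowtie2 2.1.0 and counted them per transcript with HTSeq 0.5.4p3 (versions from the submitters' processing notes). The authors deposited a normalized signal, CPM scaled by TMM. Strand use in counting is not given in the sources used here. Whole reads were recovered from the value of 1 read per column (100% whole within 1e-06 reads) and used for edgeR, limma-voom and DESeq2.

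Features reaching 1 CPM in both libraries of at least 1 setting (9820 of 17221 rows) were fitted with limma 3.58.1 in R 4.3.3 on log2(CPM + 1), which understates changes of low genes, with serum and rat as terms, on all 6 libraries (two-sided; Benjamini-Hochberg over all features, 0.05). The labels carry the same 2 codes in each setting, read here as the 2 rats whose cells were grown, and rat differences correlated by 0.49 to 0.62 between settings, so the rat was a block. Nothing states separate cultures beyond the rat, so p-values measure the spread between these libraries. The alternatives were the fit without the block, a pseudocount of 0.1, no filter, 2 other scalings, each library left out, limma-voom, edgeR 4.0.16 and DESeq2 1.42.0. The scripts were tested on simulated data.

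The members and lists were chosen with earlier results of these data known. Text names the members, Ifnar1, Ifngr1, Ifngr2, Jak1 and Jak2, and from each role list up to 3 of the largest called rises and falls and the most abundant gene; 1 gene that the rule names is not reported here. Promoters came from RefSeq (GRCr8), and gene coordinates are rn4 as deposited, written 1-based.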

Additional observations from a re-analysis of the deposited data

How the results depend on the processing

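Over 15 member comparisons and 14 alternatives, 187 of 210 values kept their direction and their side of the threshold, 5 lost a call, 9 gained one and 9 changed sign. Among these, leaving out each library in turn gave −0.18 to 0.062 for Stat2 and −0.43 to 0.045 for Irf7 in MS+ against MS−, −0.16 to 0.17 for Irf9 in MS+ against FBS, and −0.031 to 0.39 for Isg15 in MS− against FBS. Irf9 in MS+ against FBS became −0.041 with library totals, −0.00084 with limma-voom and −0.0022 with edgeR. Of 588 values of 42 called results of the other pathway genes named, 426 stayed past the threshold, 162 did not and 0 changed sign. The cause was not tested.

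Pairing by rat changed the counts of calls. Without the block, calls in MS+ against MS− were 0 of the other pathway genes and 2 of all features; in MS+ against FBS 0 members, 8 pathway genes and 944 features; in MS− against FBS 3 pathway genes and 472 features. DESeq2 gave 1 pathway gene and 274 features, then 0 members, 8 and 1173, then 6 and 802, in the same order. With no filter, MS+ against MS− had 1 pathway gene and 183 features, MS+ against FBS 0 members and 14 pathway genes, and MS− against FBS 10 and 1135. Members called in MS+ against FBS were 2 with library totals, limma-voom and edgeR, and in MS− against FBS 1 with edgeR. Leaving out a library gave 0 to 0 members, 0 to 5 pathway genes and 97 to 1631 features in MS+ against MS−; 0 to 2, 14 to 21 and 2042 to 2727 in MS+ against FBS; and 0 to 2, 5 to 19 and 638 to 2714 in MS− against FBS. Other scalings moved the median of all features by at most 0.05. The design has 2 rats, so the spread of a gene on its own rests on few degrees of freedom. The intervals and p-values of limma also draw on spread shared over all features. Levels under the floor of 3 reads were not detectable at this depth.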
